A study of Mus musculus with 12 samples.

Results

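The genes described here were the ER chaperones Hspa5, Hsp90b1, Calr, Pdia4, Hyou1, Sdf2l1 and Dnajb9, the degradation factor Herpud1, and the transcription factors Xbp1 and Atf6. They were chosen by symbol as ER chaperones and targets of the XBP1 and ATF6 arms of the unfolded protein response, apart from the ATF4 arm. All 10 were among the 17003 genes used from the deposited table, and all 10 passed the filter on low values, which left 14393 genes for testing. Their RNA was measured in 12 mice in 4 groups of 3. NL was normal liver of wild-type C57BL/6 mice. The other 3 groups were HCC (hepatocellular carcinoma) from Rictor fl/fl Tsc2 fl/fl mice, both lines kept on C57BL/6J. Their hepatocytes took up c-MYC, MCL1 and Cre plasmids with the Sleeping Beauty transposase by hydrodynamic injection, in which plasmid solution is pushed rapidly through the tail vein. The plasmid that deletes Rictor and Tsc2 carried Cre behind a CMV promoter, so the deletion was limited to cells that took it up, while the libraries came from bulk tissue. Vehicle-treated, MLN0128-treated and everolimus-treated tumors thus shared the oncogenes and both deletions, which NL did not carry. MLN0128 or everolimus was given by gavage at 1 mg/kg per day on 6 days a week over 3 weeks, from day 6 after injection, and tissue was collected 3.7 weeks after injection. This is the schedule of the labels. Treatment of the sequenced tumors is elsewhere given as 3 days, so its length is uncertain. Ages are not given in the sources used here, and the labels say no more of the replicates than that they are separate samples.

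Proteins that enter the ER are folded there by chaperones, and unfolded protein draws the chaperone BiP, the product of Hspa5, away from the sensors IRE1, PERK and ATF6. IRE1 splices Xbp1 mRNA, ATF6 is cut in the Golgi to release a transcription factor, and PERK slows translation and favors ATF4. XBP1 and cleaved ATF6 then induce chaperones, folding enzymes and degradation factors, a program that hepatocytes use heavily because they secrete most plasma proteins. MLN0128 is an ATP-competitive inhibitor of the mTOR kinase. Everolimus is a rapamycin analog that inhibits mTORC1 allosterically and acts mainly on its p70S6K/RPS6 branch. The deposited values are per gene, so spliced and unspliced Xbp1 mRNA were counted together, and cleavage of ATF6 protein was not measured.

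ATF6 with NF-Y is known to bind the ER stress response element (ERSE), and the promoters of 4 of these genes are shown because they hold that element or its shorter form. Promoter windows of 300 bases, from 250 before to 50 after each RefSeq start (GRCm38.p6), covered 8 of the 10 genes. ERSE was searched as CCAAT, any 9 bases, then CCACG. ERSE-II was searched as ATTGG, any 1 base, then CCACG, and both were read on either strand. The 2 motifs share CCACG. The capitals below mark the fixed letters of each match, and each run ends before the RefSeq start, which can differ from the end of the gene given with its values.
Hspa5, chr2:34771840-34772089, plus strand: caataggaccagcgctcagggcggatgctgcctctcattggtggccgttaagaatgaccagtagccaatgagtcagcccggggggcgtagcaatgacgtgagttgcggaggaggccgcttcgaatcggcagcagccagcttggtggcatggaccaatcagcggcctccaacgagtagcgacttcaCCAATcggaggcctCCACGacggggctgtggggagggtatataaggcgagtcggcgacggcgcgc
Hsp90b1, chr10:86705503-86705686, minus strand: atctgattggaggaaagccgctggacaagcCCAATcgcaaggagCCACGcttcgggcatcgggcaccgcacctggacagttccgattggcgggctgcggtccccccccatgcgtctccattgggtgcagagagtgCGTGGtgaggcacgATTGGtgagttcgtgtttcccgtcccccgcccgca
Calr, chr8:84847045-84847123, minus strand: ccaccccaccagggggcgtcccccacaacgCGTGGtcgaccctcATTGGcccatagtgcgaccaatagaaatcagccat
Herpud1, chr8:94386347-94386417, plus strand: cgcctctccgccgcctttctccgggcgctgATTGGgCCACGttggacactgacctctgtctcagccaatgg
The Hspa5 match lay 65 to 47 bases before the start. Hsp90b1 held a match on each strand, and the Calr match was on the strand opposite to the gene. Herpud1 held ERSE-II and no ERSE. ERSE occurred in 0.119% of all 32851 RefSeq windows and ERSE-II in 0.0365%. Neither was found in the windows of Xbp1, Dnajb9, Sdf2l1 or Pdia4. The Dnajb9 window (44210019 to 44210318) lay inside the gene as annotated, whose start is at 44210326, so it held no bases before that start. The Pdia4 window (47813463 to 47813762) lay wholly before the annotated start at 47813430. The UPR element TGACGTGG, bound by XBP1 and ATF6, was found in 0.676% of all windows and in none of the 8. These are matches of letters and not measured binding sites.

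Levels are given in FPKM, the authors' reads per kilobase of gene relative to library depth, which also carry a scaling between libraries. FPKM times exon length gave back whole reads for 98.2% to 98.8% of low values, which put the depth at 17164217 to 25180704 reads per library. Single members were covered by 236 to 24714 reads per library, so read sampling was not what limited these values. The FPKM carried scaling factors of 0.585 to 0.596 in NL and 1.10 to 1.37 in tumors, which bears on every comparison with NL below. MLN0128 replicates 1 and 2 held Xist RNA at 191 and 155 FPKM and no RNA of 4 Y-linked genes, whereas the other 10 libraries held Xist at 0.0699 FPKM or less and Y-linked RNA. Sex therefore differed within the MLN0128 group and between it and the others, and results are given below also for MLN0128 replicate 3 alone. Summed FPKM of 9 hepatocyte markers ran from 83300 to 102000 in NL and from 1900 to 8140 in tumors, where the 3 groups overlapped. Summed FPKM of 10 B and plasma cell markers, cells that also secrete heavily, was at most 25.5 in NL and 13.1 in any tumor. Rictor read 1.65 to 2.57 FPKM in NL and 1.05 to 2.21 in tumors, and Tsc2 read 4.50 to 5.32 in NL and 2.01 to 3.96 in tumors.

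The clearest pattern among tumors was in MLN0128-treated HCC, where 7 of the 10 genes were lower than with vehicle (Sdf2l1, Herpud1, Calr, Hspa5, Hyou1, Hsp90b1 and Atf6) and none higher, beside 17.1% and 14.9% of all tested genes. The group means of these 7 were 29.2% to 62.2% of vehicle on the log2(FPKM + 1) scale. With everolimus none of the 10 passed the same test, where 3.77% of all tested genes were higher and 6.04% lower, so 0 of 10 is near the share over all genes. Vehicle-treated HCC against NL differed in another subset, led by Dnajb9 at 21.3% and Xbp1 at 30.0% of NL. Dnajb9 and Xbp1 were not among the genes called with MLN0128 against vehicle. All tests were limma's moderated test on log2(FPKM + 1) with Benjamini-Hochberg adjustment over 14393 genes, at an adjusted p under 0.05, and n = 3 libraries per group.

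**Figure D1:**
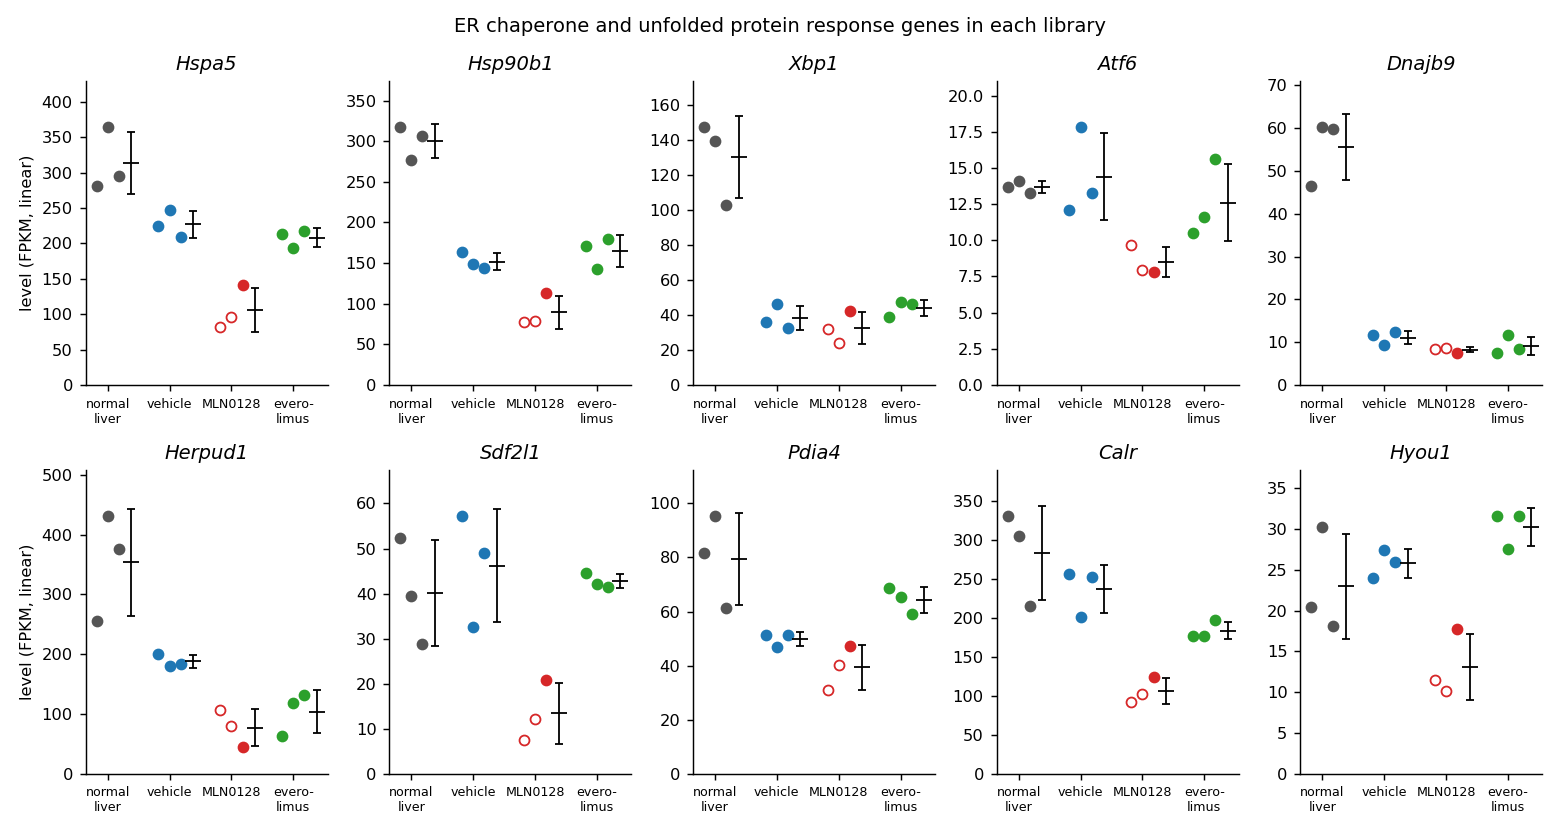
Level of each gene in FPKM (vertical axis, linear, from 0) in each of the 12 libraries, by group; points are libraries, the black bar and whiskers are the mean and SD of 3 libraries, and open red points are the MLN0128 libraries with Xist RNA. For 8 of 10 genes the 3 MLN0128 libraries lay below the 3 vehicle libraries, and Dnajb9 and Xbp1 were far higher in NL than in any tumor.

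Hspa5 (chr2:34771970-34777547, plus strand) encodes BiP, the ER HSP70 that binds unfolded chains and restrains the stress sensors. Its level was 281, 364 and 296 FPKM in NL and 224, 247 and 209 in vehicle-treated HCC, against 81.8, 95.7 and 141 after MLN0128 and 214, 193 and 218 after everolimus. The MLN0128 libraries were all below every other library, while vehicle and everolimus overlapped. Hspa5 was lower with MLN0128 than with vehicle by a log2 difference of -1.12 ± 0.19 (SE, adjusted p = 0.00145), and its difference with everolimus was -0.12 (95% interval -0.54 to 0.30). Against NL, vehicle tumors read 227 ± 19.1 against 314 ± 44.2 FPKM (mean ± SD, n = 3), a log2 difference of -0.46 with adjusted p = 0.0478. The gene was called lower in 7 of 22 alternatives, and it was called higher under both other scalings described below.

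Hsp90b1 (chr10:86690209-86705509, minus strand) encodes GRP94, the ER paralog of HSP90. It read 317, 277 and 307 FPKM in NL and 164, 149 and 144 in vehicle tumors, against 77.6, 78.5 and 113 after MLN0128 and 171, 143 and 180 after everolimus. Its order over groups was NL, then vehicle and everolimus together, then MLN0128. The log2 difference of MLN0128 from vehicle was -0.78 ± 0.16 (adjusted p = 0.00421). With everolimus the difference was 0.11 (95% interval -0.25 to 0.46). Vehicle tumors were lower than NL by 0.97 on the log2 scale (adjusted p = 0.000211), but higher by 0.22 and 0.10, without passing, under the other scalings.

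Hyou1 (chr9:44379490-44392369, plus strand) encodes GRP170, a nucleotide exchange factor for BiP. Its level was 20.5, 30.3 and 18.1 FPKM in NL and 24.0, 27.5 and 26.0 in vehicle tumors, against 11.5, 10.2 and 17.7 after MLN0128 and 31.6, 27.6 and 31.6 after everolimus. MLN0128 was lowest in every library, and the everolimus libraries were all just above the vehicle libraries. The difference from vehicle was -0.96 ± 0.21 with MLN0128 (adjusted p = 0.00494) and 0.22 ± 0.21 with everolimus (adjusted p = 0.536). Vehicle tumors and NL overlapped, with a log2 difference of 0.19 (95% interval -0.26 to 0.64).

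Sdf2l1 (chr16:17130138-17132383, minus strand) encodes an ER protein that works with BiP and its J-domain partners. It read 52.3, 39.5 and 28.7 FPKM in NL and 57.2, 32.5 and 49.0 in vehicle tumors, against 7.50, 12.1 and 20.7 after MLN0128 and 44.6, 42.2 and 41.5 after everolimus. This was the member with the widest gap between MLN0128 and the other tumors, although its MLN0128 libraries also differed among themselves. Its log2 difference was -1.78 ± 0.32 from vehicle (adjusted p = 0.00186) and -1.70 ± 0.32 from everolimus (adjusted p = 0.0122). Everolimus and vehicle overlapped at means of 42.8 ± 1.63 and 46.2 ± 12.6 FPKM (SD, n = 3).

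Dnajb9 (chr12:44205559-44210326, minus strand) encodes ERdj4, a J-domain partner of BiP that holds IRE1 in check. NL libraries read 46.6, 60.2 and 59.9 FPKM, vehicle 11.6, 9.3 and 12.3, MLN0128 8.38, 8.69 and 7.59, and everolimus 7.48, 11.6 and 8.41. Every tumor library was below every NL library, and the tumor groups lay close together. Vehicle tumors fell by 2.23 on the log2 scale from NL (SE 0.16, adjusted p = 3.82e-07), a call that held in 22 of 22 alternatives. MLN0128 libraries were all below vehicle, but the difference of -0.38 did not pass (adjusted p = 0.0962), nor did that of everolimus (-0.26, adjusted p = 0.34).

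Calr (chr8:84841850-84846934, minus strand) encodes calreticulin, a lectin chaperone of glycoproteins that also stores calcium. It read 331, 305 and 216 FPKM in NL and 256, 201 and 253 in vehicle tumors, against 91.9, 102 and 124 after MLN0128 and 177, 177 and 197 after everolimus. MLN0128 libraries formed the lowest group, and everolimus libraries lay between them and vehicle without overlap. The log2 difference from vehicle was -1.15 ± 0.18 with MLN0128 (adjusted p = 0.00101), while that of -0.36 with everolimus did not pass (adjusted p = 0.235). MLN0128 against everolimus was -0.80 (adjusted p = 0.024).

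Pdia4 (chr6:47796141-47813430, minus strand) encodes ERp72, a protein disulfide isomerase. Its level was 81.6, 95.3 and 61.4 FPKM in NL and 51.3, 46.9 and 51.2 in vehicle tumors, against 30.8, 40.1 and 47.3 after MLN0128 and 68.7, 65.3 and 59.0 after everolimus. Everolimus libraries were all above vehicle, while MLN0128 and vehicle overlapped. Neither drug passed against vehicle, at -0.35 with MLN0128 (adjusted p = 0.154) and 0.36 with everolimus (adjusted p = 0.218). The drugs differed by -0.71 ± 0.18 (MLN0128 against everolimus, adjusted p = 0.0315). Vehicle tumors were lower than NL by 0.64 (adjusted p = 0.0069), a direction that turned under both other scalings.

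Herpud1 (chr8:94386438-94395377, plus strand) encodes a ubiquitin-like ER membrane protein that serves ER-associated degradation. It read 256, 431 and 376 FPKM in NL and 200, 180 and 184 in vehicle tumors, against 106, 79.9 and 45.0 after MLN0128 and 63.1, 119 and 131 after everolimus. Both drug groups lay wholly below vehicle and overlapped each other. MLN0128 was lower than vehicle by 1.36 on the log2 scale (SE 0.33, adjusted p = 0.00933). The everolimus difference of -0.91 ± 0.33 did not pass (unadjusted p = 0.018, adjusted p = 0.102), and MLN0128 and everolimus differed by -0.45 (95% interval -1.17 to 0.27). The Herpud1 difference between vehicle and NL, -0.88 with adjusted p = 0.0324, lost its call without NL replicate 2 or 3 or without any 1 vehicle library (adjusted p from 0.0561 to 0.109), and its direction turned under both other scalings.

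Xbp1 (chr11:5520659-5525893, plus strand) encodes the transcription factor made after IRE1 splicing. Its RNA read 147, 139 and 103 FPKM in NL and 36.1, 46.0 and 32.5 in vehicle tumors, against 31.9, 24.1 and 42.3 after MLN0128 and 38.7, 47.3 and 46.1 after everolimus. NL stood above all tumors, and the 3 tumor groups overlapped. Vehicle tumors were lower than NL by 1.74 (SE 0.21, adjusted p = 1.69e-05), with the same direction in all 22 alternatives and a call in 21. Among tumors no difference passed, with -0.24 for MLN0128 (95% interval -0.69 to 0.22) and 0.21 for everolimus (-0.25 to 0.67).

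Atf6 (chr1:170704674-170867771, minus strand) encodes the membrane-bound sensor and transcription factor, and its level was the lowest of the 10 genes in NL, 13.7, 14.1 and 13.3 FPKM. It read 12.1, 17.8 and 13.3 in vehicle tumors, against 9.68, 7.96 and 7.84 after MLN0128 and 10.5, 11.6 and 15.6 after everolimus. MLN0128 libraries were below all others, and the other 3 groups overlapped. The MLN0128 difference from vehicle was -0.69 ± 0.16 (adjusted p = 0.00837), and that from everolimus, -0.50, did not pass (adjusted p = 0.0741). Vehicle and NL differed by 0.05 (95% interval -0.31 to 0.41).

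Levels per length can also be compared between genes. In NL, Herpud1 (354 ± 89.5 FPKM), Hspa5 (314), Hsp90b1 (300) and Calr (284) formed the upper group, whose SDs overlapped. In vehicle tumors Calr (237 ± 30.9) and Hspa5 (227 ± 19.1) led and did not differ beyond their SDs, and Xbp1 dropped below Sdf2l1 and Pdia4. Hspa5 stood above 98.3% of all genes in NL, 98.9% in vehicle and everolimus tumors and 98.2% in MLN0128 tumors.

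Counted over the genes, vehicle-treated HCC against NL gave 0 higher and 6 lower, beside 36% of all tested genes higher and 33% lower. Under limma's treat test against a fold of 1.5, 2 of them remained lower, Dnajb9 and Xbp1, against a background of 16.8%. For MLN0128 against vehicle, the median log2 difference was -0.87 for the 10 genes and -0.01 for all tested genes, and all 10 had a negative difference, as did 50.9% of all tested genes. For 8 of the 10, every MLN0128 library was below every vehicle library, which held for 23.4% of all tested genes. By the treat test none of the 10 passed (1.65% of all tested genes were lower), and Sdf2l1 came closest at an adjusted p of 0.061.

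For everolimus against vehicle, where limma's moderated test called 0, only Herpud1 passed at an unadjusted p under 0.05, where 13.5% of all tested genes were lower, and limma's voom on the recovered reads also called 0. The median over the 10 was -0.10, with 0.03 for all tested genes. MLN0128 against everolimus, the direct test of the 2 drugs, gave 6 lower (Sdf2l1, Hyou1, Hspa5, Hsp90b1, Calr and Pdia4) and 0 higher, with 5.54% and 3.99% of all tested genes lower and higher. The doses matched at 1 mg/kg per day, but doses equal by weight need not inhibit mTOR equally. The 6 calls depended on single libraries, while the differences kept their direction. Without MLN0128 replicate 1 or without everolimus replicate 3 none of them passed, at adjusted p of 0.0505 to 0.124, although Hyou1 read -1.11 and -1.15 there against -1.18 with all libraries, and Sdf2l1 -1.38 and -1.73 against -1.70. Also, fitting the 2 groups alone gave none, at adjusted p of 0.0739 to 0.0934. With TPM 86.5% of all genes called between the drugs were higher and with quantile normalization 53.7%, against 41.9% with the deposited scaling, and 3 members were lower with either. The 2 comparisons with vehicle share those 3 vehicle libraries.

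**Figure D2:**
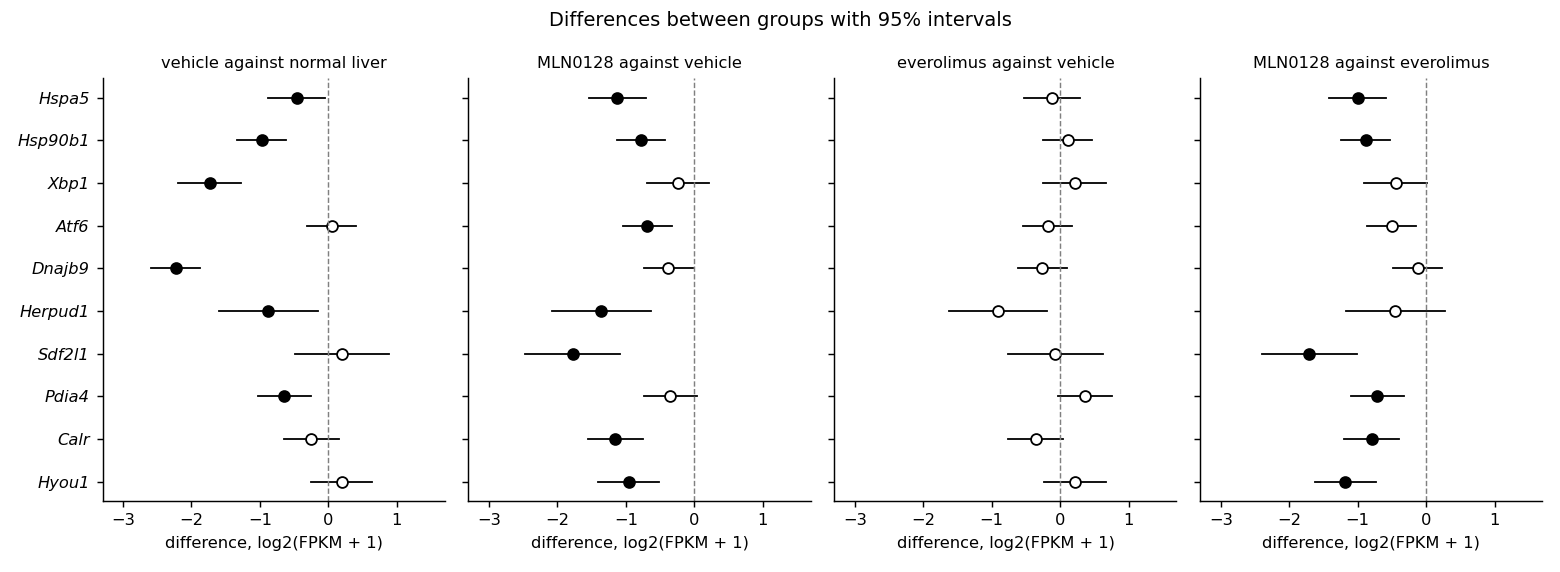
Difference in log2(FPKM + 1) (horizontal axis) of each gene in 4 comparisons; bars are 95% intervals from the model over 12 libraries, and filled points have an adjusted p under 0.05. Filled points number 6, 7, 0 and 6 from left to right, all left of 0.

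Against NL, MLN0128-treated HCC was lower for 10 of 10 genes and everolimus-treated HCC for 6, where 35.5% and 34.3% of all tested genes were lower. None of the 10 was higher in either, beside 37.1% and 35.9% of all tested genes. The 6 with everolimus were Dnajb9, Herpud1, Xbp1, Hsp90b1, Calr and Hspa5. MLN0128 tumors thus stood below NL also for Sdf2l1, Atf6 and Hyou1, genes for which vehicle tumors and NL overlapped. These 3 read -1.58, -0.64 and -0.77 on the log2 scale. The directions for Atf6 and Hyou1 turned to higher (0.71 and 0.61) when every library was scaled to the same total. That for Sdf2l1 stayed negative (-0.21) but did not pass limma's moderated test (adjusted p = 0.588). With that scaling 2 members were higher and 2 lower for MLN0128, and 6 higher and 1 lower for everolimus. It put 86.2% and 83.6% of all called genes higher for MLN0128 and everolimus, against 51.1% and 51.2% with the deposited scaling.

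The scaling between libraries decided the direction of vehicle against NL for 5 of the 10 genes (Hspa5, Hsp90b1, Herpud1, Pdia4 and Calr). When every library was scaled to the same total (TPM), the median of all tested genes moved to 1.00 for vehicle against NL. Of the members 6 were called higher and 1, Dnajb9, lower, beside 9650 and 1689 of all 14393 tested genes. With quantile normalization 2 members were called higher (Calr and Hspa5) and 2 lower (Dnajb9 and Xbp1), beside 4959 and 4625 of all tested genes. Relative to that median, the TPM differences were -2.11 for Dnajb9, -1.56 for Xbp1, -0.78 for Hsp90b1, -0.68 for Herpud1, -0.46 for Pdia4, -0.27 for Hspa5, -0.05 for Calr, 0.21 for Atf6, 0.37 for Hyou1 and 0.39 for Sdf2l1. Without the median taken off, Dnajb9 and Xbp1 were lower in vehicle tumors than in NL under each scaling. Xbp1 did not pass limma's moderated test with TPM (adjusted p = 0.0741). Atf6, Hyou1 and Sdf2l1 had positive differences under each, although Atf6 relative to the median read -0.0085 with the deposited scaling. Of all genes called, 85.1% were higher with TPM and 52.1% with the deposited scaling. Between MLN0128 and vehicle the TPM median was 0.19 and that share 73.7%, against 46.5% with the deposited scaling, and the 7 lower genes kept their direction under both scalings. There 6 of them passed with TPM (Atf6 at adjusted p = 0.0648 did not) and 6 with quantile normalization (Hsp90b1 at adjusted p = 0.0813 did not).

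**Figure D3:**
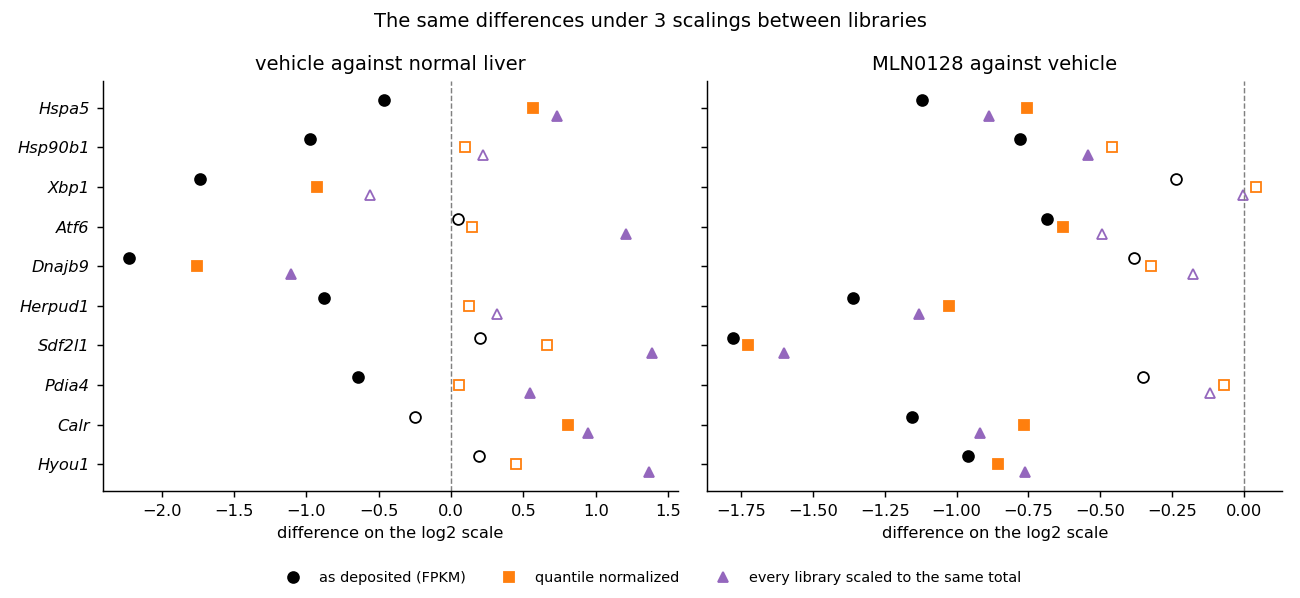
Log2 difference of each gene (horizontal axis) for vehicle against normal liver and for MLN0128 against vehicle with 3 scalings between libraries; filled symbols have an adjusted p under 0.05. On the left only Dnajb9 and Xbp1 stay left of 0 under all 3, and on the right the 7 genes called with the deposited scaling stay left of 0 under all 3.

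Ratios within a library do not depend on that scaling, so each gene was also expressed as a percent of Hspa5 in the same library, a measure chosen after the values were seen and not tested. Dnajb9 was 16.5% to 20.2% of Hspa5 in NL and 3.77% to 5.89% with vehicle, without overlap. Xbp1 was 34.8% to 52.3% of Hspa5 in NL and 15.6% to 18.6% with vehicle. In the other direction, Hyou1 was 6.11% to 8.32% of Hspa5 in NL and 10.7% to 12.4% with vehicle. Hsp90b1 and Herpud1 were also below NL on this measure without overlap and Atf6 above, while Sdf2l1, Pdia4 and Calr overlapped. Whether the make-up of the set changed more than that of other genes was not tested.
With MLN0128, Pdia4 was 33.5% to 41.9% of Hspa5, above the 19.0% to 24.5% with vehicle. Xbp1 was 25.2% to 39.0% of Hspa5 with MLN0128, also above vehicle. So was Hsp90b1, at 80.1% to 94.9% with MLN0128 against 60.3% to 73.2% with vehicle. Calr stayed in one range, 81.4% to 121% with vehicle and 87.9% to 112% with MLN0128. With everolimus, Herpud1 was 29.5% to 61.7% of Hspa5, below the 72.9% to 89.3% with vehicle, whereas 3 genes lay above vehicle. These were Hsp90b1 (74.1% to 82.6% against 60.3% to 73.2%), Pdia4 (27.1% to 33.8% against 19.0% to 24.5%) and Hyou1 (14.3% to 14.8% against 10.7% to 12.4%). As a percent of Hspa5, Hsp90b1 and Pdia4 were thus above vehicle with both drugs. Their mean levels with MLN0128 were nevertheless below vehicle, at 89.7 against 152 FPKM and, not called, 39.4 against 49.8. The mean of Hspa5 itself was 106 against 227 FPKM there. The share of all genes without overlap on this measure was not computed.

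MLN0128 replicate 3, the library with Y-linked RNA, was the highest of the 3 MLN0128 libraries for 7 of the 10 genes. On the deposited scaling it was still below all vehicle libraries for 8 of 10, with Xbp1 (42.3 FPKM) and Pdia4 (47.3) inside the vehicle range. With every library scaled to the same total (TPM), Hsp90b1 (447), Dnajb9 (30) and Hyou1 (70.1) lay inside the vehicle range. Xbp1 (167) and Pdia4 (187) lay above that range there, and the rest stayed below it. The share of all genes for which replicate 3 lay below all vehicle libraries was not computed. With this library alone set against vehicle, and assumed to vary like the other groups, 2 genes were called lower, where 7.50% of all tested genes were. These were Herpud1 (-2.04, adjusted p = 0.014) and Calr (-0.92, adjusted p = 0.0429), while Hspa5 was at an adjusted p of 0.0521. For Herpud1, Atf6 and Dnajb9, replicate 3 held the lowest of the MLN0128 levels. Without replicate 3 the same count of 7 passed, and Hspa5 read -1.34. Sex cannot be told apart from the drug for the libraries with Xist RNA.

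The summed hepatocyte marker RNA was also lower in tumors than in NL and overlapped between the tumor groups, as given above. Of its 9 genes, Ttr (332 to 1010 against 1120 to 1730 FPKM) and Apoa1 (737 to 1250 against 1290 to 2010) were lower with MLN0128 than with vehicle without overlap. Cyp2e1 was higher (44.3 to 87.4 against 1.56 to 28.6), and the rest overlapped. Macrophage marker RNA summed to 263 to 336 FPKM in NL, 137 to 192 in vehicle tumors and 68.0 to 138 after MLN0128, and biliary marker RNA to 41.9 to 96.7 with vehicle and 16.7 to 32.9 with MLN0128. Their part in the differences was not tested. In bulk tissue, fewer cells of a type and less RNA per cell cannot be told apart.

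The neighbors of these genes in the secretory pathway were examined with 4 lists. Of 24 other ER chaperones and folding enzymes, MLN0128 against vehicle gave 0 higher and 13 lower, with a median of -0.40, beside 14.9% and 17.1% of all tested genes. Ero1l, which reoxidizes the disulfide isomerases, fell by 1.61 on the log2 scale (adjusted p = 0.000296), from 22.2, 33.8 and 31.5 FPKM with vehicle to 9.01, 8.02 and 9.14. Dnajc3, the BiP partner p58IPK, fell by 1.19 (adjusted p = 0.000616), and Dnajb11, another J-domain partner, by 1.17 (adjusted p = 0.000296). With everolimus 0 were higher and 1 lower, no more than the 3.77% and 6.04% of all tested genes, and the 1 was Dnajc10, a reductase with a J domain (-0.78, adjusted p = 0.0441). MLN0128 against everolimus gave 11 lower (5.54% of all tested genes), led by Dnajc3 (-1.09), Ero1l (-1.04) and Creld2 (-0.99).
In vehicle tumors against NL the same list had 3 higher and 15 lower, beside 36% and 33% of all tested genes. Ero1l was higher by 1.97 (adjusted p = 4.08e-06), Ero1lb, its beta form, lower by 2.59 (adjusted p = 8.19e-08) and Ppib, an ER prolyl isomerase, lower by 1.56. The 2 oxidases of the isomerases thus went opposite ways, each without overlap between the groups and in the same direction under both other scalings. The count of the list did not hold its direction, with 13 higher and 2 lower when every library was scaled to the same total. In that scaling 9650 of all 14393 tested genes were higher and 1689 lower.

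Of 21 genes of ER-associated degradation, MLN0128 against vehicle gave 1 higher and 11 lower (median -0.40), beside 14.9% and 17.1% of all tested genes. Everolimus gave 1 higher and 1 lower, near the 3.77% and 6.04% of all tested genes. The largest drops with MLN0128 were in Ube2g2, a ubiquitin-conjugating enzyme (-1.14, adjusted p = 0.000273), Derl1, part of the exit channel (-1.01), and Selenos, which ties the channel to p97 (-0.88). Derl1 read 66.3, 77.6 and 65.6 FPKM with vehicle and 34.8, 33.6 and 33.9 with MLN0128. Derl3 was the 1 gene higher (0.71), at a level of 2 FPKM or less in every library. With everolimus, Rnf5 was higher by 0.43 and Selenos lower by 0.40. Vehicle against NL gave 2 higher and 14 lower (36% and 33% of all tested genes), among them Derl2, which fell by 2.31. With every library scaled to the same total the comparison gave 12 higher and 4 lower, beside 9650 and 1689 of all 14393 tested genes.

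Of 23 genes of ER translocation and signal peptide processing, MLN0128 against vehicle gave 1 higher and 14 lower (median -0.51), beside 14.9% and 17.1% of all tested genes. The lower genes included Sec11c, a signal peptidase subunit (-1.15), and the channel subunits Sec61b (-0.90) and Sec61g (-0.88). The 1 higher gene was Srpr, the receptor of the signal recognition particle, at 0.47. Everolimus gave 0 higher and 2 lower, Sec11c (-0.84) and Srp14 (-0.34), near the 3.77% and 6.04% of all tested genes. Against NL, vehicle tumors had 6 higher and 10 lower (36% and 33% of all tested genes), and Sec62 fell by 1.67 and Srpr by 1.31. Scaling every library to the same total turned that count to 16 higher and 1 lower, beside 9650 and 1689 of all 14393 tested genes.

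Of 12 sensors and transducers, MLN0128 against vehicle gave 1 higher and 3 lower with a median of -0.10, shares close to the 14.9% and 17.1% of all tested genes. The 3 were Atf6b, the paralog of Atf6 (-0.60), Ern1, which encodes IRE1 (-0.49, adjusted p = 0.0481), and Nfyc, an NF-Y subunit (-0.46). With everolimus, Eif2ak3, which encodes PERK, was lower (-0.66, adjusted p = 0.0311) and Nfya higher (0.50). Vehicle against NL gave 6 higher and 2 lower (36% and 33% of all tested genes), including Mbtps2, the protease that releases ATF6 (0.95), Atf6b (0.90) and Creb3l3, a liver relative of ATF6 (-1.89). The ATF4 arm, read for comparison only, had 10 of 12 genes higher in vehicle tumors than in NL and 11 of 12 lower with MLN0128 than with vehicle, where the 10 ER genes had 0 higher and 7 lower. With every library scaled to the same total, 10 of the sensors were higher and 1 lower in vehicle tumors than in NL. Of all 14393 tested genes, 9650 were higher and 1689 lower there.
For MLN0128 against vehicle with every library scaled to the same total, higher calls numbered 0, 3, 2 and 3 in the 4 lists, beside 3548 of all 14393 tested genes. Lower calls there numbered 7 of 24, 6 of 21, 5 of 23 and 0 of 12, beside 1269 of all tested genes. After quantile normalization higher calls numbered 0, 2, 3 and 1, beside 2537 of all tested genes. Lower calls then numbered 10, 8, 8 and 2, beside 2174 of all tested genes. With MLN0128 replicate 3 alone, the median log2 differences of the 4 lists were -0.31, -0.31, -0.41 and 0.01, beside -0.03 for all tested genes. The lists were written with earlier results known and were not tested as sets, and these alternatives for them were chosen after seeing the data.

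**Figure D4:**
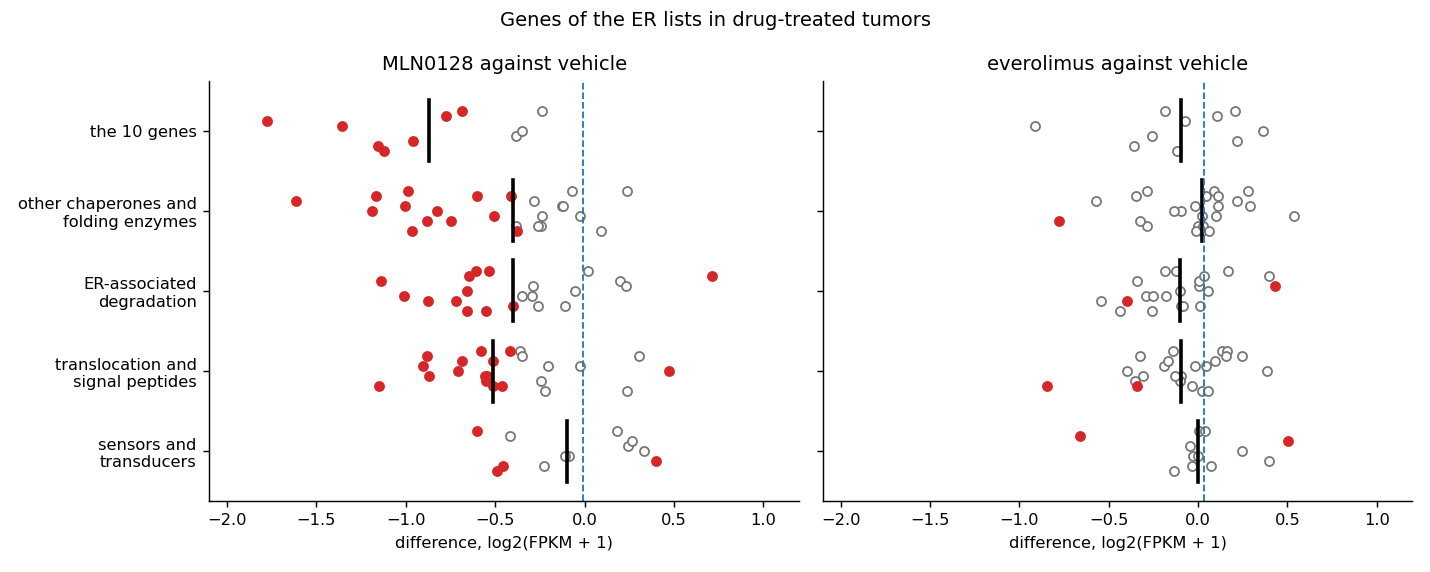
Log2 difference (horizontal axis) of each gene of 5 lists for MLN0128 and everolimus against vehicle; red points have an adjusted p under 0.05, black bars are list medians and the dashed blue line is the median of all 14393 tested genes. With MLN0128 the medians of the first 4 lists lie from -0.87 to -0.40, and with everolimus all 5 lie from -0.10 to 0.02.

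The genes whose profile over the 12 libraries was nearest to that of Hspa5 were found by the root mean square difference of log2(FPKM + 1), centred per gene, among 14392 genes. The nearest was Manf, a secreted ER stress factor, at 0.096, followed by Dnajb11 (0.17), Serp1 (0.18), Snx25 (0.20), Pdia3 (0.21), Akirin1 (0.21), Creld2 (0.22) and Sec22b (0.22), where the median gene was at 0.74. Manf read 35.6, 33.0 and 31.3 FPKM in vehicle tumors, against 12.5, 14.4 and 25.1 after MLN0128 and 33.4, 31.5 and 34.2 after everolimus. Like Hspa5 it was highest in replicate 3 among the MLN0128 libraries. Among the members, Calr ranked 13 and Hsp90b1 15, while Pdia4 ranked 180, Hyou1 538, Atf6 798, Sdf2l1 1324, Xbp1 2625, Herpud1 5468 and Dnajb9 8712. The 10 genes therefore did not share 1 profile. Nearest to Xbp1 were Hspa13 (0.19), Fermt2 (0.19), Plcxd2 (0.21), Gm45716 (0.22), Aldoc (0.22), Fkbp2 (0.22), Nectin2 (0.23) and Tpbgl (0.23), against a median of 0.90, and the nearest member was Hsp90b1 at rank 416. Likeness here is a description over 12 libraries that fall into 4 groups.

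**Figure D5:**
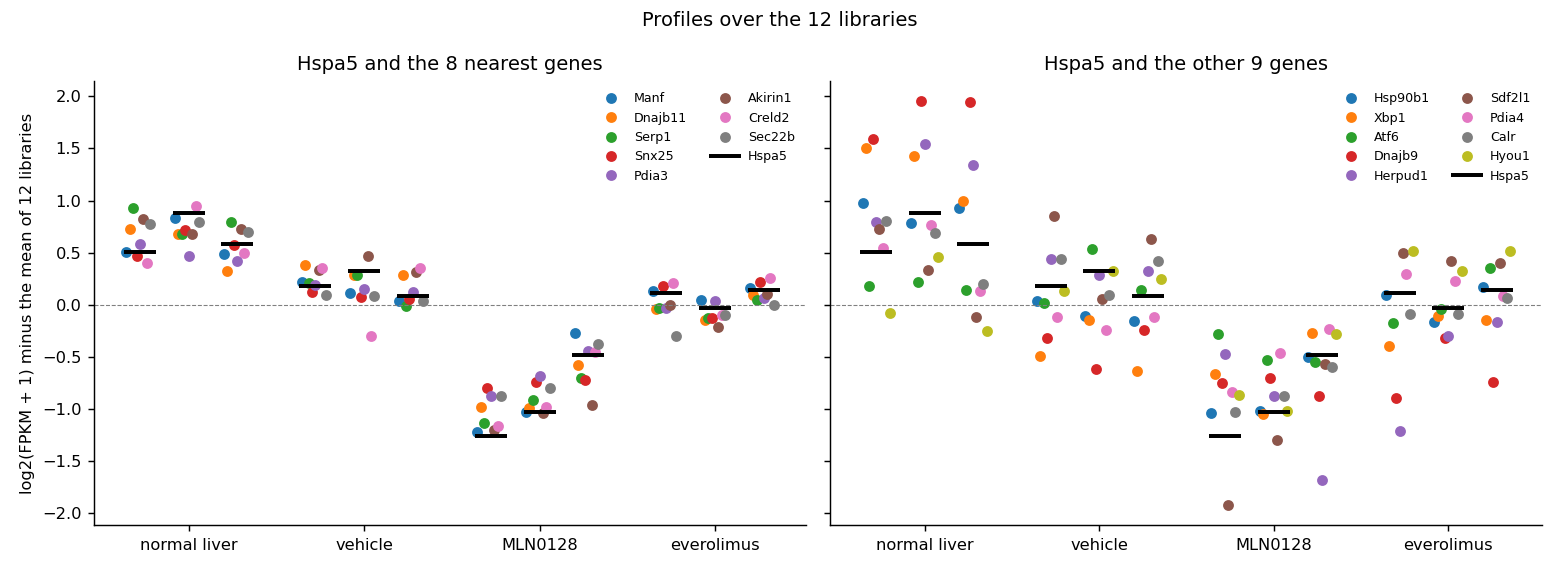
Log2(FPKM + 1) of each gene minus its mean over 12 libraries (vertical axis), by group and library; the black bar is Hspa5 and points are the 8 nearest genes (left) or the other 9 members (right). On the left the points stay close to the bar, and on the right Dnajb9, Xbp1 and Herpud1 lie well away from it.

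The elements shown above were set beside these results. All 4 genes whose window held ERSE or ERSE-II, Hspa5, Hsp90b1, Calr and Herpud1, were called lower with MLN0128. Of the 4 genes whose window held neither, Sdf2l1 was called and Xbp1, Dnajb9 and Pdia4 were not. The windows of Dnajb9 and Pdia4 did not span their annotated starts, so an element near those starts could have been missed. Over all windows, ERSE was found for 37 genes, of which 18 were tested. In MLN0128 against vehicle, 9 of the 18 were lower (Acacb, Calr, Calr4, Creld2, Dnajc3, Hsp90b1, Hspa5, Pdia6 and Spats2l). The 3 higher were Derl3, Gm6566 and Pan2. Of all tested genes 17.1% were lower and 14.9% higher, as given above, and the median over the 18 was -0.54. ERSE-II was found for 12 genes, of which 9 were tested. There 2 were lower (Dnajb11 and Herpud1) and 2 higher (Gm46430 and Lgalsl), with a median of 0.09. Both lists were made after the values were seen, hold 3 and 1 of the 10 genes, and were not tested.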

How the data were processed

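Bulk RNA-seq of 12 mouse samples was analysed, 3 per group. Novogene prepared and sequenced the libraries, after which the authors counted the reads of each Ensembl gene, assigned org.Mm.eg.db symbols and deposited FPKM rounded to 3 significant digits. The submitters' processing notes name GRCm38 and FastQC 0.11.7. The aligner and the gene lengths behind the FPKM are not given in the sources used here. No reads were aligned here.

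Of 17007 rows, 4 with a repeated symbol were left out, and 22 symbols had been turned into dates. Genes that reached 0.5 FPKM in 3 or more of the 12 libraries were tested as log2(FPKM + 1) with limma 3.58.1 (R 4.3.3, intensity trend), 12 libraries in 1 model. FPKM are not counts, so a count test was not the main one. Differences are on the log2(FPKM + 1) scale, which understates those of low genes. Reads were recovered with exon lengths of GENCODE M21 (tolerance 0.1 read), in which 16864 symbols had 1 entry. Positions are GRCm38, and promoter windows are from RefSeq (GRCm38.p6). The tests were tried on simulated data first. P-values set each difference against the spread between samples within groups, pooled over all 4 groups and moderated across genes by limma.

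The 10 genes and the lists were chosen with earlier results of these data known. Named were all 10 genes, the 8 genes nearest to Hspa5 and to Xbp1, and some called genes of the lists. The plan was to name the 3 largest called differences of each list in each main comparison, but not all of these are printed. MLN0128 against everolimus is given for the list of other ER chaperones only. Other called genes of the lists are named where a count was small. Alternatives covered the pseudocount, filter, scaling, call rule, libraries in the model, prior variance, replicate block, voom on recovered reads and each library left out. The paper's results text gives treatment of the sequenced tumors as 3 days. The labels give 3 weeks, which was used. The paper's methods on mouse treatment also give 3 weeks, but its methods on RNA-seq state no length.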

Additional observations from a re-analysis of the deposited data

How the results depend on the processing

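With 3 libraries per group, small differences could not be shown. Directions against NL depended on the scaling between libraries, calls between the drugs on single libraries, and sex differed within the MLN0128 group. Where a value changed, the cause was not tested unless the alternative used fewer samples or a stricter rule.

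A pseudocount of 0.1, no intensity trend and voom on recovered reads changed none of the 60 differences (10 genes in 6 comparisons) in direction or call, and no filter on low values ended 1 call. Scaling every library to the same total (TPM) gave 6 higher and 1 lower for vehicle against NL, 3 lower for MLN0128 against everolimus, 2 higher and 2 lower for MLN0128 against NL, and 6 higher and 1 lower for everolimus against NL. It reversed, for vehicle against NL, Hspa5 (0.74), Hsp90b1 (0.22), Herpud1 (0.32), Pdia4 (0.54) and Calr (0.95). For MLN0128 against NL it reversed Atf6 (0.71), Pdia4 (0.43), Calr (0.030) and Hyou1 (0.61), and for everolimus against NL Hspa5 (0.60), Hsp90b1 (0.31), Atf6 (1.00), Pdia4 (0.90) and Calr (0.58). Dnajb9 in MLN0128 against everolimus turned to 0.11.

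Quantile normalization gave 2 higher and 2 lower for vehicle against NL, 3 lower for MLN0128 against everolimus, 5 lower for MLN0128 against NL, and 4 higher and 2 lower for everolimus against NL. Reversed were, for vehicle against NL, Hspa5 (0.57), Hsp90b1 (0.099), Herpud1 (0.13), Pdia4 (0.053) and Calr (0.81), and for everolimus against NL Hspa5 (0.61), Hsp90b1 (0.27), Pdia4 (0.54) and Calr (0.56). Calr turned to 0.044 in MLN0128 against NL, Xbp1 to 0.044 in MLN0128 against vehicle and Hspa5 to 0.043 in everolimus against vehicle.

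The treat test against a fold of 1.5 left 2 lower for vehicle against NL, 0 for MLN0128 against vehicle and against everolimus, and 3 for everolimus against NL. Only the groups compared gave 0 lower for MLN0128 against everolimus. Without both MLN0128 libraries 1 and 2, 2 were lower against vehicle and 0 against everolimus, and Xbp1 against vehicle turned to 0.16.

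Leaving out each library in turn gave 4 to 6 lower for vehicle against NL, 7 for MLN0128 against vehicle and 10 against NL each time, 0 to 6 for MLN0128 against everolimus, and 5 to 7 lower and 0 to 1 higher for everolimus against NL. The 0 came without MLN0128 replicate 1 or everolimus replicate 3, and the 1 higher was Hyou1 without NL replicate 2 (0.62) or MLN0128 replicate 3. Differences that were not called changed sign for Atf6 (-0.10 to 0.16) and Sdf2l1 (-0.014 to 0.43) in vehicle against NL, Sdf2l1 (-0.30 to 0.096) in everolimus against vehicle and (-0.087 to 0.33) against NL, and Dnajb9 (-0.24 to 0.044) in MLN0128 against everolimus.

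Deviations of libraries with the same replicate number correlated across genes with r from -0.289 to 0.148, so the numbers were not taken to pair the samples. With the replicate number as a block, Hspa5 in vehicle against NL (-0.46, adjusted p = 0.0637 by limma) and Pdia4 (-0.71, 0.061) and Calr (-0.80, 0.0512) in MLN0128 against everolimus were not called, so 5 and 4 genes were lower, and no other call changed.

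Counts over all 14393 genes moved most between the drugs. Against 575 higher and 797 lower, there were 1 and 5 with only the groups compared and also by the treat test, 373 and 441 with the replicate block, 1256 and 196 with TPM, 73 and 93 without MLN0128 libraries 1 and 2, 104 and 108 without MLN0128 replicate 1, and 86 and 96 without everolimus replicate 3. For everolimus against vehicle, 542 higher and 870 lower became 137 and 399 without everolimus replicate 1, 170 and 400 without vehicle replicate 3, 310 and 592 with only the groups compared, 323 and 654 with the block, and 5 and 82 by the treat test. For MLN0128 against vehicle, 2142 higher and 2463 lower became 3548 and 1269 with TPM, 680 and 1079 without MLN0128 libraries 1 and 2, and 69 and 237 by the treat test. For vehicle against NL, 5176 and 4750 became 9650 and 1689 with TPM and 2282 and 2425 by the treat test.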
